A study of Rattus norvegicus with 7 samples.

Results

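The genes of the enzymes that attach ubiquitin to proteins and of those that remove it were examined in NR8383 cells after exposure to zinc oxide nanoparticles (ZnO NPs). NR8383 cells are a line of macrophages that came from the air spaces of a rat lung. Members were taken by name from the array's annotation: the Uba genes numbered 1 to 7, all Ube2 genes, the numbered Usp genes apart from Usp18, Uchl1 to Uchl5, and the Otub and Otud genes. This gave 99 genes with 150 probes, of 27103 gene names and 45598 probes on the array. By class, 6 were E1 genes, 32 were E2 genes and 61 were deubiquitinase genes. All 99 names matched a gene of the current rat annotation, 78 by transcript accession and 21 by symbol, and 1 of them, Ube2d4, is now listed as Ube2d2b.

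Exposed cells had been kept for 4 h without serum with 2 µg/mL of the ZnO NPs NM110, and control cells for 4 h without serum and without NPs (0 µg/mL). The dose is that of the sample labels. The study's methods state a higher dose and another seeding density. RNA of 4 control replicates and 3 ZnO replicates was measured, each on 1 one-colour array. The design text calls them biological replicates, and all are cultures of a single line, so the p-values given here cover the spread between these cultures only.

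Ubiquitin is a small protein that is joined to other proteins in a relay. An E1 enzyme activates it with ATP, an E2 enzyme carries it, and an E3 ligase directs its transfer to a substrate. Chains of it mark proteins for the proteasome or regulate signalling, endocytosis and DNA repair, and deubiquitinases trim or remove them. Parallel relays with E1 and E2 enzymes of their own handle SUMO, NEDD8, ISG15 and UFM1. In macrophages these marks control signalling through NF-kB, the handling of receptors and the removal of misfolded proteins. Most deubiquitinases are cysteine proteases, and some of the USP family also carry a zinc-binding ubiquitin-recognition domain, the ZnF-UBP domain.

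Of the 80 member genes tested, 6 had a tested probe at an unadjusted p under 0.05 (limma), 3 higher and 3 lower after ZnO. Among the 12361 named genes tested, 378 were higher and 335 lower at that threshold, by their brightest tested probe. The data on the 6 rest on the following probes. For each, the position on rn4 that the files give is followed by the first 30 of its 60 bases.
Otub2, chr6:127698244-127698303: ggtctaagggcttgggttcagtgagcttcc
Uba6, chr14:23728832-23728891: caggagaaacttagtttgaggtttctaaag
Ube2l6, chr3:68016268-68016327: aacgttaaacattttattttctgttgatga
Usp54, chr15:3983035-3983094: caagagtcagctaaactattttagggcaga
Usp34, chr14:104425856-104425915: agttcactgtagtggctttcatttaatatg
Ube2o, chr10:106647297-106647356: cacgttgcagctcttgtcatttctggtata
These lines identify what was hybridised. No annotation of rn4 was used here, so exon or UTR was not assigned.

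Zinc activates the factor MTF1, which binds metal response elements, and the promoters of the members were therefore read for that motif. Promoters are those of RefSeq on GRCr8, from 250 bases before to 50 bases after the start of a gene, and 82 of the 99 members had one. The core searched was TGCACNC or TGCGCNC on both strands. It stood in 32 of the 82 member promoters (39.0%), in 35.1% of the promoters of the 8224 genes tested on the array that could be matched by symbol and in 24.2% of all 33469 promoters. The core of the antioxidant response element, TGACNNNGC, stood in 19 member promoters (23.2%), against 14.8% for tested genes and 12.1% of all. The pair of heat shock half-sites GAANNTTC stood in 2 member promoters (2.44%, against 6.01% for tested genes and 8.59% of all) and the core of the interferon-stimulated response element in 1, that of Ube2d3 (1.22%, against 3.09% and 3.92%). Among the 26 motif matches in the promoters of 26 genes named in the text, 0 overlapped a match of another motif. The promoters of Otub2, which had the smallest p among the members, and of Ube2g2, an E2 of the endoplasmic reticulum, are shown with the matched letters in capitals.
Otub2, chr6:128309613-128309912, plus strand: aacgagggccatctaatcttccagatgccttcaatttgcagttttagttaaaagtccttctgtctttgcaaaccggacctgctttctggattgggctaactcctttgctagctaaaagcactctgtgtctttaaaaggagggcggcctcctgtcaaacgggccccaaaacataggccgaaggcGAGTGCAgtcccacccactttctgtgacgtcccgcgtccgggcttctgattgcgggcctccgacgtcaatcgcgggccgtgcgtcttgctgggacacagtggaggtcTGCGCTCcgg
Ube2g2, chr20:11005011-11005310, minus strand: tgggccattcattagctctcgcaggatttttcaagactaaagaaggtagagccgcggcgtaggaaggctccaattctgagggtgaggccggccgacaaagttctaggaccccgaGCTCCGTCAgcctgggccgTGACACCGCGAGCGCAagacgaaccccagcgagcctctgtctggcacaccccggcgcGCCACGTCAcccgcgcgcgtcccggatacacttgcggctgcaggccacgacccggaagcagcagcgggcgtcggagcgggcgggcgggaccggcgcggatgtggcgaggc
In Otub2 both matches are metal response cores, at -67 to -61 on the minus strand and at 41 to 47 on the plus strand, counted from the start of the gene. In Ube2g2 a metal response core at -108 to -102 adjoins an antioxidant core at -117 to -109, and further antioxidant cores lie at -136 to -128 and at -60 to -52. Tested members with the metal response core had a median log2 fold change of 0.02 (26 genes) and those without it one of 0.0033 (39 genes). A match describes letters only and says nothing of binding.

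All 7 arrays lay on 1 slide read in 1 scan, with control and ZnO arrays in separate columns, and slide column and exposure cannot be told apart. The 75th percentile of the array intensities lay between 958 and 1489 in the controls and between 980 and 1603 in the ZnO arrays, and no spot was saturated. Feature Extraction's own quality result was marked for evaluation on 2 control and 2 ZnO arrays. Exposure was visible in the zinc-responsive genes Mt1a, Mt2A and Slc30a1, with log2 fold changes of 3.40, 5.83 and 1.37. Of 12 macrophage markers on the array 10 were well above background on every array, including Cd68 and Ptprc, while Marco was so on none and Adgre1 on 1. Of the markers of other cells, Cd3d, Col1a2, Dcn, Pecam1, Cdh5 and Mpo were above background on all arrays, and Epcam, Col1a1, Kdr and Elane on none. Among the 10 tested macrophage markers 1 was at an unadjusted p under 0.05 and 0 at an adjusted one. This was Csf1r, the receptor of the macrophage growth factor M-CSF, with overlapping groups and a log2 fold change of -0.28 ± 0.10 (SE, unadjusted p = 0.029, adjusted p = 0.81, limma). Its part in the results on the members was not tested. No tested marker of other cells was at an unadjusted p under 0.05.

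None of the members passed the test after ZnO exposure. Testing was limited to probes that stood well above background throughout at least 1 group, which left 119 member probes of 80 genes: all 6 E1 genes, 29 of the 32 E2 genes and 45 of the 61 deubiquitinase genes. At an adjusted p under 0.05 (limma, adjusted over 20050 probes), 0 of the 119 member probes were called, against 10 probes in all (0.0499%), every one of them higher after ZnO. At an unadjusted p under 0.05, 3 member probes were higher and 3 lower (2.52% each), where 3.06% of all tested probes were higher and 2.86% lower. The lower ones included the probe of Uba6, which passed the filter through the control group only, where it was higher. In 8 member probes every ZnO array lay above every control array (6.72%, against 3.8% of all tested probes), and in 3 every ZnO array lay below (2.52%, against 3.59%). These shares were close to those of the whole array, apart from the 8 higher probes, whose excess over the background was not tested. As a gene has several probes, its brightest tested probe stands for it from here on, and levels are log2 intensities relative to the 75th percentile of the array.

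**Figure D1:**
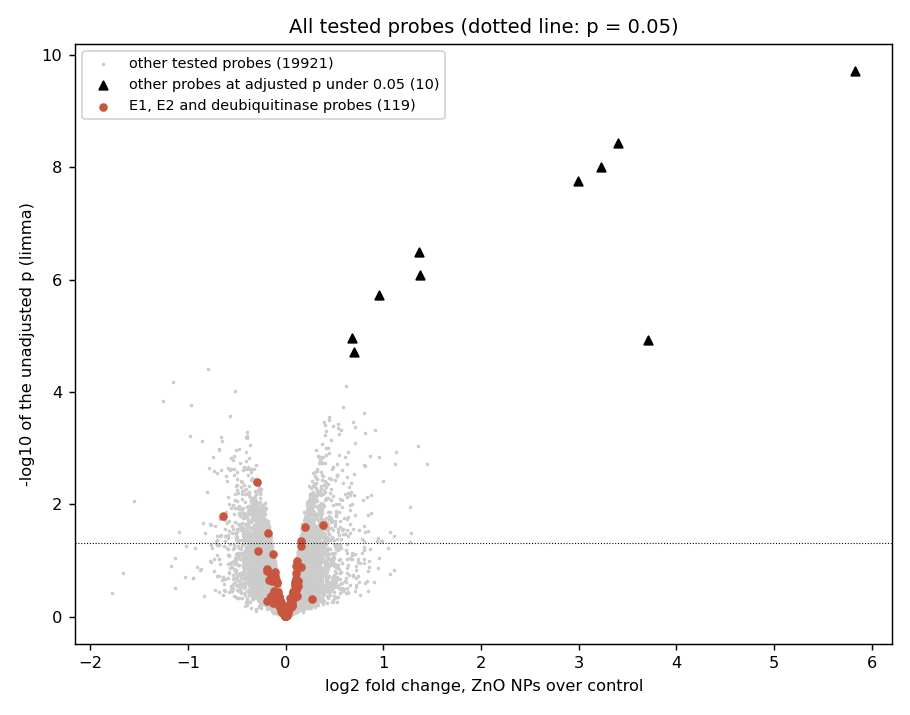
The horizontal axis gives the log2 fold change of ZnO NPs over control and the vertical axis the -log10 of limma's unadjusted p, for all tested probes (grey), the 10 probes at an adjusted p under 0.05 (triangles) and the 119 E1, E2 and deubiquitinase probes (red). The red points lie at the foot of the plot, with 6 of them above the dotted threshold line and none among the triangles.

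The differences were small in size as well. The median log2 fold change of the 80 member genes was 0.0035, against -0.0053 for the 12361 named genes tested, and 41 were above 0 and 39 below. In 74 of the 80 the 95% interval of limma stayed within 1.5-fold of no difference in either direction, and for the 12361 genes this held for 10355. The exceptions were Uba6, Ube2l6, Usp21, Usp31, Usp2 and Otud7b. Standard errors of the members had a median of 0.08 on the log2 scale. In what follows, levels are on that log2 scale, and a value with ± is limma's log2 fold change of ZnO over control with its SE. In these bulk samples, fewer cells with a transcript and less of it per cell cannot be told apart.

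**Figure D2:**
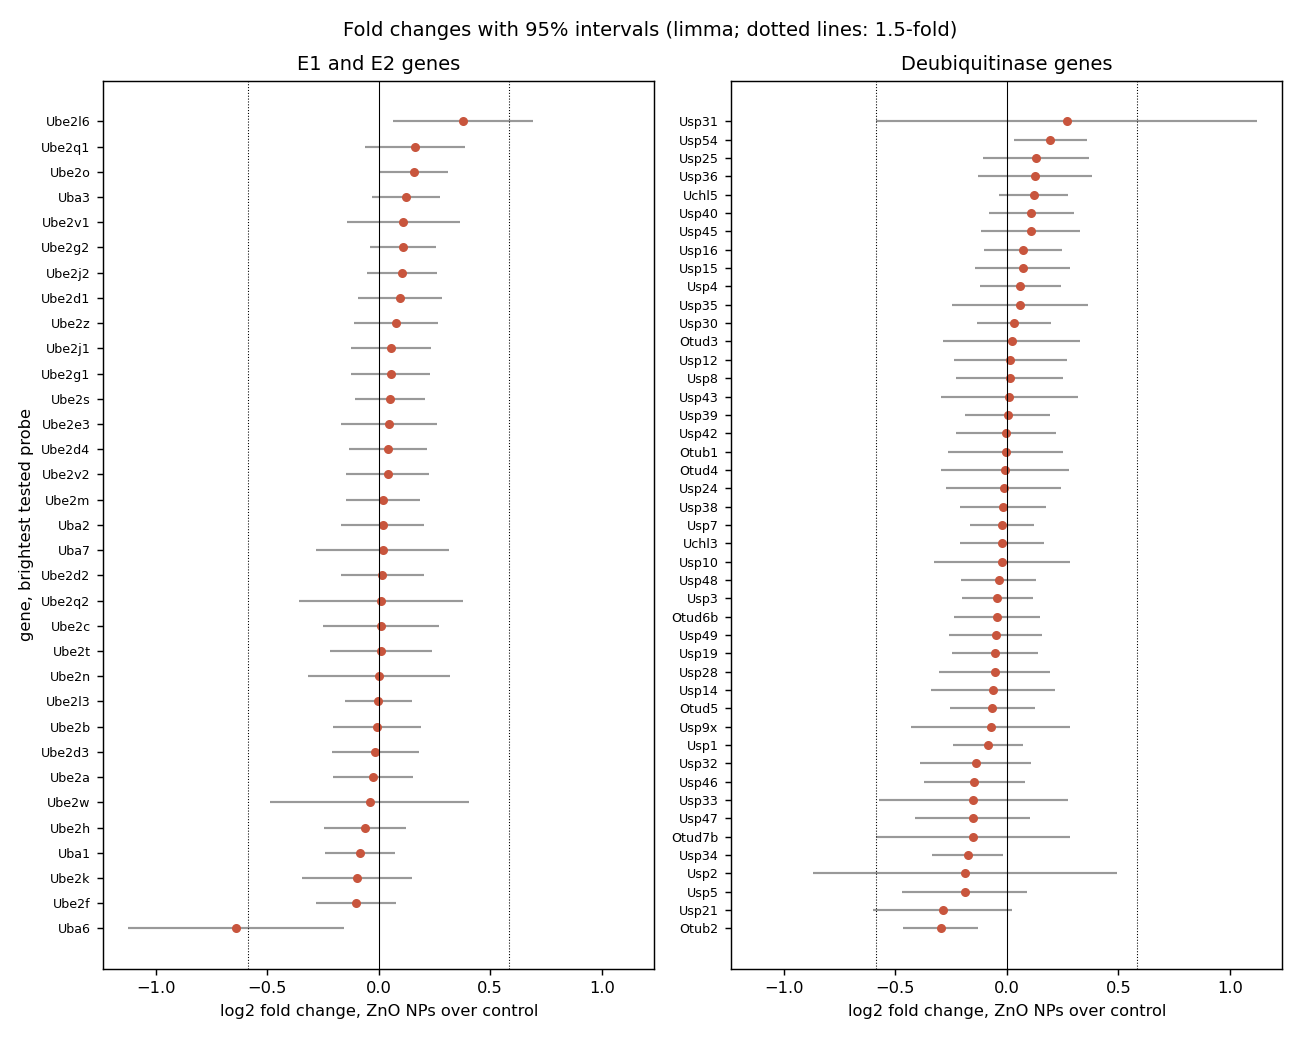
Each row is a tested gene, with limma's log2 fold change of ZnO NPs over control (point) and its 95% interval (bar), for 33 E1 and E2 genes (left) and the 45 deubiquitinase genes (right). Dotted lines mark 1.5-fold, which the bars of 6 genes cross, those of Uba6 and Usp31 being among the widest.

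The ubiquitin-activating enzymes act first in the relay, and neither was called. Uba1, the main ubiquitin E1, had levels of 4.12, 4.08, 4.05 and 4.20 in the control arrays and 4.06, 4.00 and 4.03 in the ZnO arrays. The groups overlapped, with a log2 fold change of -0.08 ± 0.07 (SE) and an interval of -0.24 to 0.07 (limma, adjusted p = 0.95). Uba6, the second ubiquitin E1, which also activates FAT10, had levels of -5.31, -5.17, -5.65 and -5.24 in the control arrays and -6.43, -5.56 and -5.95 in the ZnO arrays. Its lowest values were those of ZnO replicates 1 and 3, while ZnO replicate 2 lay within the control range. Its probe was well above background on all 4 control arrays but on only 1 of the 3 ZnO arrays, so its fold change of -0.64 ± 0.21 compares values near the detection limit (adjusted p = 0.74, limma). With normexp background correction or the authors' table of median intensities the same difference was -0.21, and without ZnO replicate 1 it was -0.41.

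Among the E1 genes that serve ubiquitin-like proteins, Uba3, the catalytic subunit of the NEDD8 E1, had levels of 0.33, 0.40, 0.33 and 0.30 in the control arrays and 0.41, 0.52 and 0.46 in the ZnO arrays. Every ZnO array lay above every control array, though the lowest ZnO value and the highest control value differed by only 0.0051. The log2 fold change was 0.12 ± 0.07 (adjusted p = 0.89, limma). A dimmer probe of the gene pointed the other way, with a log2 fold change of -0.09. Log2 fold changes were 0.02 ± 0.08 for Uba2, the SUMO E1 subunit, and 0.02 ± 0.13 for Uba7, the E1 of ISG15, both with intervals that held 0.

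Ube2l6, the E2 that pairs with Uba7 to carry ISG15, showed the largest positive difference among the E1 and E2 genes. Its levels were -4.25, -3.99, -4.51 and -4.09 in the control arrays and -3.95, -3.69 and -3.86 in the ZnO arrays. All ZnO arrays lay above all control arrays, though the lowest ZnO value and the highest control value differed by 0.04. The log2 fold change was 0.38 ± 0.13, a 1.3-fold difference with an interval of 0.07 to 0.69, at an unadjusted p of 0.024 and an adjusted p of 0.79 (limma). It was 0.19 with normexp background correction and 0.18 with the authors' table of median intensities. Its E1 partner Uba7 stood at 0.02 ± 0.13 and its cargo Isg15, with levels of -1.54, -1.46, -1.63 and -1.32 in the control arrays and -1.29, -1.40 and -1.43 in the ZnO arrays, at 0.11 ± 0.09. In both of these genes the groups overlapped.

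The E2 enzymes of NEDD8 lay closer to 0. Ube2m, which carries NEDD8 to most cullins, had levels of 2.47, 2.50, 2.45 and 2.57 in the control arrays and 2.60, 2.44 and 2.52 in the ZnO arrays (0.02 ± 0.07). Its groups overlapped, and its direction was not stable, as it was below 0 with quantile normalization or median centring. Ube2f, the E2 that carries NEDD8 to Cul5, had levels of -0.06, -0.02, 0.12 and 0.10 in the control arrays and 0.01, -0.10 and -0.11 in the ZnO arrays and a log2 fold change of -0.10 ± 0.08.

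The Ube2d enzymes, which work with a wide range of RING ligases, had log2 fold changes between -0.01 and 0.10 in 4 genes. Ube2d1 was the highest, with levels of -0.88, -0.95, -1.03 and -0.78 in the control arrays and -0.77, -0.88 and -0.79 in the ZnO arrays (0.10 ± 0.08). A dimmer probe of Ube2d1 gave 0.15, and there all ZnO arrays lay above all controls. Ube2d3 was the lowest, with levels of 2.92, 3.00, 2.87 and 2.77 in the control arrays and 2.78, 2.88 and 2.97 in the ZnO arrays (-0.01 ± 0.08). A dimmer probe of Ube2d2 gave -0.11, against 0.02 for its brightest. The Ube2d proteins are nearly alike in sequence, and cross-hybridisation between their transcripts was not tested.

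The E2 enzymes of lysine-63-linked chains and DNA damage tolerance showed no difference beyond their spread. Ube2n, the E2 that builds these chains, had levels of 2.15, 2.30, 1.98 and 2.19 in the control arrays and 1.86, 2.23 and 2.39 in the ZnO arrays, a wide spread in both groups around a log2 fold change of 0.0033 ± 0.14. Its partner without catalytic activity, Ube2v1, had levels of 4.04, 4.20, 3.99 and 4.17 in the control arrays and 3.99, 4.28 and 4.36 in the ZnO arrays (0.11 ± 0.11). Other probes of Ube2v1 were lower, down to -0.17, so the direction for this gene depended on the probe. Ube2a, the RAD6-type E2 that ubiquitinates PCNA and histone H2B, had levels of -0.52, -0.56, -0.61 and -0.61 in the control arrays and -0.73, -0.59 and -0.49 in the ZnO arrays (-0.03 ± 0.08). Ube2b, Ube2t and Ube2v2 lay between -0.0069 and 0.04.

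Of the E2 enzymes of the anaphase-promoting complex, Ube2s had levels of 1.35, 1.40, 1.38 and 1.496 in the control arrays and 1.45, 1.42 and 1.504 in the ZnO arrays (0.05 ± 0.07), and Ube2c a fold change of 0.01 ± 0.11. The E2 enzymes of the endoplasmic reticulum, which serve the removal of misfolded proteins, were all slightly above 0. Ube2g2 had levels of 1.14, 1.16, 1.23 and 1.15 in the control arrays and 1.25, 1.25 and 1.33 in the ZnO arrays. Ube2j2, a membrane-anchored member of the group, had levels of 1.70, 1.69, 1.56 and 1.60 in the control arrays and 1.77, 1.73 and 1.73 in the ZnO arrays. In both genes every ZnO array lay above every control array, with log2 fold changes of 0.11 ± 0.06 and 0.10 ± 0.07 (adjusted p = 0.91 and 0.93, limma). Ube2j1 (0.05 ± 0.08) and Ube2g1 (0.05 ± 0.08) overlapped, and all 4 stayed above 0 under every scaling of the arrays except the authors' table of median intensities, where 3 did. A dimmer probe of Ube2g2 gave -0.01.

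Among the remaining E2 genes, Ube2o and Ube2q1 were the highest. Ube2o, a large enzyme that acts as both E2 and E3, had levels of -1.78, -1.84, -1.88 and -1.88 in the control arrays and -1.68, -1.74 and -1.64 in the ZnO arrays. All ZnO arrays lay above all control arrays, with a log2 fold change of 0.16 ± 0.07, or 1.12-fold, an unadjusted p of 0.045 and an adjusted p of 0.84 (limma). When arrays were instead centred on the spike-in RNA added to each sample (spike-in centring), it was 0.25. This centring shifts every probe's fold change by the same amount, and the median of all tested probes went from -0.0064 to 0.0911. Ube2q1 had levels of -1.49, -1.72, -1.504 and -1.78 in the control arrays and -1.38, -1.52 and -1.48 in the ZnO arrays and overlapping groups (0.16 ± 0.10). At the other end, Ube2k, an E2 that builds lysine-48-linked chains, had levels of -1.20, -1.39, -1.38 and -1.61 in the control arrays and -1.54, -1.55 and -1.38 in the ZnO arrays (-0.10 ± 0.11). In all, 24 of the 35 E1 and E2 genes were above 0 with a median of 0.02, a direction that turned with median centring (15 of 35, median -0.02). Median centring also took the median of all tested probes from -0.0064 to -0.0439.

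**Figure D3:**
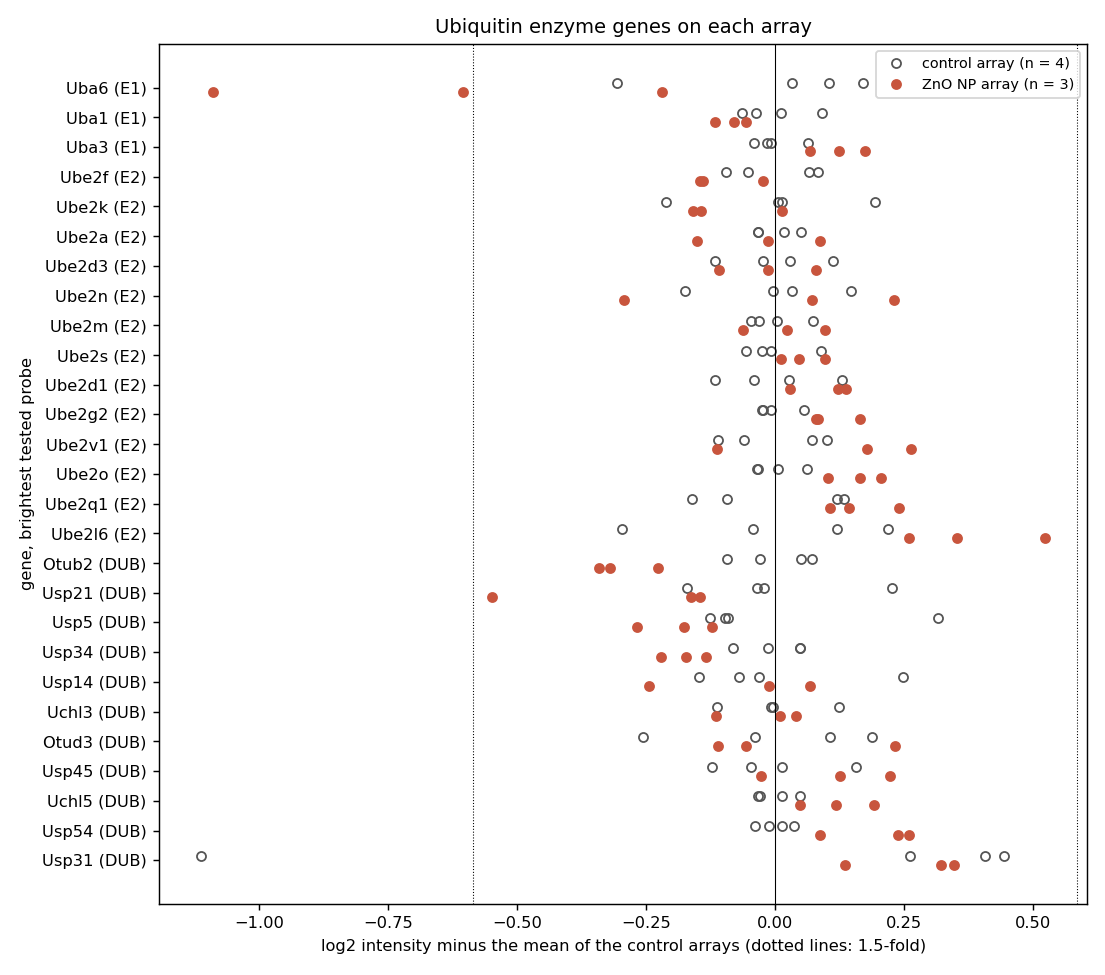
For 27 genes, the horizontal axis gives the log2 intensity of each array minus the mean of the control arrays (open circles, 4 control arrays; filled circles, 3 ZnO arrays) and the dotted lines mark 1.5-fold. The filled circles clear the open ones on the right in Ube2l6, Ube2o, Ube2g2 and Usp54 and on the left in Otub2 and Usp34. In Uba3 and Uchl5 they lie to the right by only 0.0051 and 0.0001 at the nearest pair. In the other genes the groups overlap.

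The proteasome carries deubiquitinases that trim chains before proteins are degraded. Uchl5, which docks on the regulatory particle, had levels of 0.42, 0.46, 0.38 and 0.38 in the control arrays and 0.46, 0.60 and 0.53 in the ZnO arrays. Every ZnO array lay at or above the highest control, the lowest pair being equal when rounded, and the log2 fold change was 0.12 ± 0.07 (adjusted p = 0.9, limma). Usp14, which also binds the regulatory particle, had levels of 1.103, 1.498, 1.18 and 1.22 in the control arrays and 1.01, 1.24 and 1.32 in the ZnO arrays and overlapping groups (-0.06 ± 0.12). Its other tested probe gave 0.07. Uchl3, a small UCH enzyme that also processes NEDD8, had levels of 1.79, 1.92, 1.79 and 1.68 in the control arrays and 1.68, 1.84 and 1.81 in the ZnO arrays (-0.02 ± 0.08). Uchl1, known from neurons, was not well above background on any array.

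Otub2, an OTU deubiquitinase, had the smallest p of all members. Its levels were -1.82, -1.68, -1.66 and -1.76 in the control arrays and -1.96, -2.07 and -2.05 in the ZnO arrays. No ZnO array reached the lowest control, and the gap between the groups, 0.13, was wider than the SD within either (0.08 and 0.06). The log2 fold change was -0.30 ± 0.07, or 0.814-fold, with an interval of -0.47 to -0.13, an unadjusted p of 0.0040 and an adjusted p of 0.57 (limma). It was below 0 under all 19 alternative settings, between -0.33 and -0.20, the smallest size being that with spike-in centring. Of the 7 OTU genes tested, 6 were below 0, where 6394 of the 12361 named genes tested were. Among these 6, dimmer probes of Otud4 and Otud6b gave 0.095 and 0.037, while all 3 probes of Otub1 were below 0. The median of the 7 was -0.04 and became 0.05 with spike-in centring, a shift common to all tested probes. The gene above 0 was Otud3, with levels of -3.63, -3.18, -3.41 and -3.27 in the control arrays and -3.48, -3.43 and -3.14 in the ZnO arrays and overlapping groups (0.02 ± 0.13). Otub1, a more widely studied relative that also inhibits E2 enzymes, lay at -0.0048 ± 0.11.

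Of the USP genes with a ZnF-UBP domain 7 were tested, with a median of -0.04 and no gene at an unadjusted p under 0.05. Usp5, which recycles free ubiquitin chains, had levels of -1.46, -1.47, -1.497 and -1.05 in the control arrays and -1.49, -1.64 and -1.55 in the ZnO arrays. The value of control replicate 4 stood apart from the other 3 controls, and the fold change of -0.19 ± 0.12 was -0.08 without it. Usp45 was the highest, with levels of -2.67, -2.39, -2.53 and -2.59 in the control arrays and -2.57, -2.42 and -2.32 in the ZnO arrays (0.11 ± 0.10). Its dimmer probe gave -0.06. The median of these 7 genes was 0.02 with array weights and 0.06 with spike-in centring, so it had no settled sign. The shift with spike-in centring was common to all tested probes.

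Among the other 28 USP genes tested, Usp54 and Usp34 had an unadjusted p under 0.05, 1 higher and 1 lower. Of the 12361 named genes tested, 378 and 335 were so. Usp54 had levels of -1.85, -1.77, -1.80 and -1.82 in the control arrays and -1.72, -1.55 and -1.57 in the ZnO arrays. All ZnO arrays lay above all controls, at a log2 fold change of 0.20 ± 0.07, or 1.15-fold (unadjusted p = 0.026, adjusted p = 0.8, limma). Usp34, a large USP known from Wnt signalling, had levels of 0.31, 0.44, 0.38 and 0.44 in the control arrays and 0.26, 0.17 and 0.22 in the ZnO arrays. Here all ZnO arrays lay below all controls, at -0.18 ± 0.07, or 0.885-fold (unadjusted p = 0.033, adjusted p = 0.82, limma), and the difference was -0.08 with spike-in centring. Usp21, which deubiquitinates histone H2A, had levels of -3.80, -3.40, -3.65 and -3.67 in the control arrays and -3.79, -4.18 and -3.78 in the ZnO arrays. ZnO replicate 2 was the lowest of the 7 and control replicate 1 lay just below the other ZnO values (-0.29 ± 0.13, adjusted p = 0.87, limma). The difference was -0.15 without ZnO replicate 2, -0.18 with normexp correction and -0.16 with the authors' table.

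Usp31 had the highest fold change among the USP genes and the widest error, with levels of -4.07, -4.03, -5.59 and -4.22 in the control arrays and -4.34, -4.13 and -4.16 in the ZnO arrays. Control replicate 3 lay far below the other controls, and the log2 fold change of 0.27 ± 0.37 became -0.10 without it. Usp2, a USP with a daily rhythm in many tissues, was spread widely within both groups, with levels of -0.05, -0.24, 0.30 and 0.82 in the control arrays and 0.54, -0.16 and -0.31 in the ZnO arrays (-0.19 ± 0.29). Usp7, which stabilises Mdm2 and p53, had the smallest spread of the members, with levels of 1.09, 1.12, 1.07 and 1.04 in the control arrays and 1.08, 1.02 and 1.07 in the ZnO arrays and a fold change of -0.02 ± 0.06. Over all 45 deubiquitinase genes 17 were above 0 and 28 below, with a median of -0.02 that became 0.08 with spike-in centring. The median of all tested probes moved likewise, from -0.0064 to 0.0911.

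**Figure D4:**
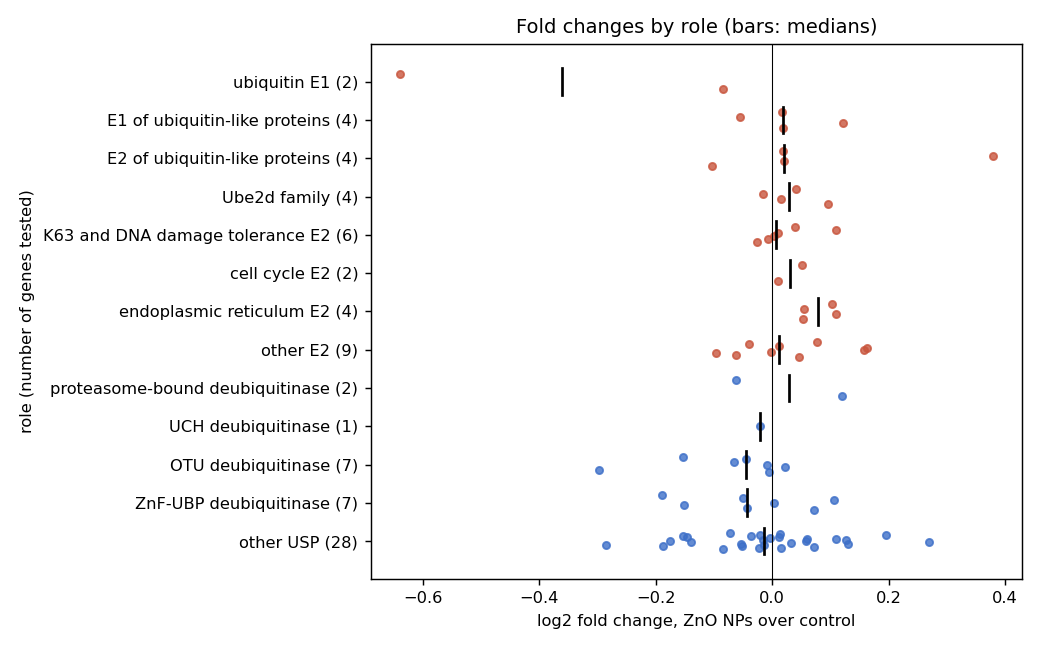
Each point is the log2 fold change of a tested gene, ZnO NPs over control, in the row of its role, with black bars for the medians (E1 and E2 roles in red, deubiquitinases in blue). The medians lie between -0.04 and 0.08 in all roles except the 2 ubiquitin E1 genes (median -0.36), where the point of Uba6 lies at -0.64. The probe of Uba6 passed the filter through the control group only.

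For 30 member genes 2 or more probes were tested, and the probes of a gene had the same sign in 14 of them. The lowest and highest probe of a gene differed by a median of 0.08 and by more than 0.2 in Ube2v1, Usp40, Uba3 and Uba2. In Usp40 the 4 probes ran from -0.13 to 0.11. Differences between probes of a gene were thus of the same size as most of the fold changes given above.

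**Figure D5:**
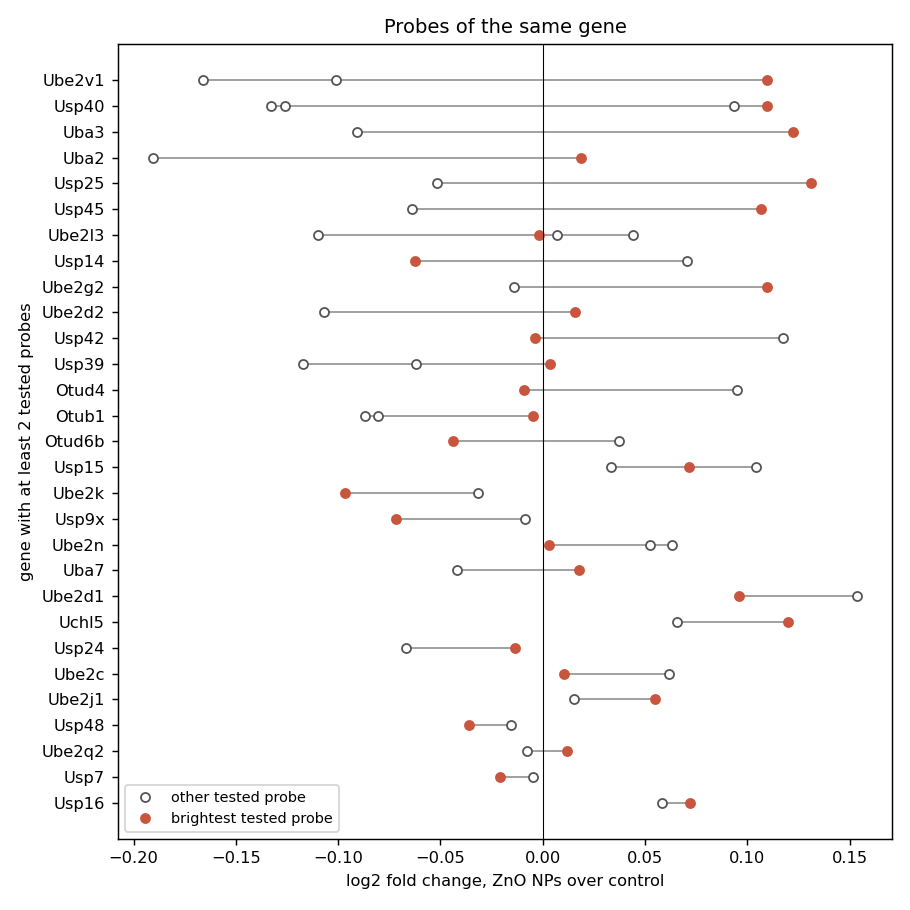
For 29 genes with at least 2 tested probes, each point is the log2 fold change of a probe, ZnO NPs over control, with the brightest tested probe filled and a line from the lowest to the highest. Probes fall on both sides of 0 in 16 genes, and the longest line, that of Ube2v1, spans 0.28.

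The remaining 19 genes had no tested probe, and 16 of them were above background on no array. These were the E2 genes Ube2e2, Ube2q2l and Ube2ql1 and the deubiquitinase genes Otud6a, Otud7a, Uchl1, Usp13, Usp20, Usp44, Usp51, Usp11, Usp26, Usp27x, Usp29, Usp53 and Usp9y. Usp37 was above background on 4 arrays, Usp22, of the SAGA complex, on 3, and Otud1 on 1. Of the 12 genes with a ZnF-UBP domain 5 were untested.

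The partners of these enzymes were read from lists of the same pathway, in which no gene passed an adjusted p under 0.05 either (limma). Of the 12 precursors of ubiquitin and ubiquitin-like proteins 9 had a log2 fold change above 0. The polyubiquitin gene Ubb had levels of 7.15, 7.01, 7.08 and 7.10 in the control arrays and 7.24, 7.11 and 6.97 in the ZnO arrays and overlapping groups (0.02 ± 0.08). Of 16 tested partners and regulators of the ubiquitin-like relays 9 were above 0 and none was at an unadjusted p under 0.05, and Ufl1, the UFM1 ligase, was the highest (0.14 ± 0.08).

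Among 22 tested HECT and RBR ligases an unadjusted p under 0.05 was reached by 1 with a higher and 1 with a lower level. Of the 12361 named genes tested, 378 were higher and 335 lower at that threshold. Whether any of these lists holds a larger share was not tested. Hectd3 had levels of -2.90, -3.05, -2.94 and -3.23 in the control arrays and -2.57, -2.80 and -2.67 in the ZnO arrays (0.35 ± 0.10, adjusted p = 0.72, limma). Herc2, a giant ligase of the DNA damage response, had levels of -0.996, -0.93, -1.098 and -0.87 in the control arrays and -1.28, -1.19 and -1.13 in the ZnO arrays (-0.23 ± 0.08, adjusted p = 0.79, limma). In both genes the groups did not overlap, as in 486 of the named genes on the higher side and 458 on the lower. Of 19 tested genes of the cullin ligase core 1 was past an unadjusted p of 0.05, Rnf7, a RING partner of Cul5, with levels of -1.31, -1.21, -1.28 and -1.17 in the control arrays and -1.11, -0.98 and -0.98 in the ZnO arrays (0.22 ± 0.07, adjusted p = 0.75, limma). Of 17 tested genes of other deubiquitinase families 1 was so, Fam63a, a MINDY-type enzyme, with levels of -2.64, -2.75, -2.64 and -2.59 in the control arrays and -3.12, -2.86 and -2.84 in the ZnO arrays (-0.29 ± 0.09, adjusted p = 0.73, limma). Cyld (0.09 ± 0.09) and Tnfaip3 (-0.14 ± 0.12), deubiquitinases that restrain NF-kB, had overlapping groups.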

How the data were processed

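RNA of NR8383 cells was hybridised to one-colour Agilent rat arrays, 4 control and 3 ZnO NP samples. Per the labels, spots were read with Agilent Feature Extraction (version 11.0.1.1), and the deposited array files hold a background-subtracted, detrended intensity for each spot. The study normalised by percentile in GeneSpring, with percentile and test not given in the sources used here. A further deposited table with all arrays was equal, in 100% of spots, to the median intensity from the scanner, so it holds no normalization between arrays.

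From the deposited intensity, log2 values were taken and set relative to each array's 75th percentile (58717 non-control spots), and spots of a probe were averaged without those marked as outliers, as Agilent's files flag them. A probe counted as well above background on an array when most of its spots were flagged so, and it was tested when this held throughout at least 1 group (20050 probes). ZnO and control arrays were compared with lmFit and eBayes of limma 3.58.1 (R 4.3.3), without covariates, and p-values were adjusted by Benjamini-Hochberg over all tested probes. Errors after ± are SE of limma. The number of arrays limits the precision. The script was tested on simulated data with known fold changes. Groups came from the sample labels.

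The members, roles and lists were chosen with earlier results of these data known. Genes were named by this rule: members with a tested probe at an unadjusted p under 0.05, the highest and lowest tested gene of each role, the ubiquitin E1 genes, and a short list of enzymes with Ube2m, Ube2l6, Ube2n, Usp14, Uchl5 and Usp5. Uba2, Uba7, Ube2d2, Ube2j2, Usp2, Usp7, Otub1, Otud4, Otud6b and the genes named in the paragraphs on probes, detection and partners were chosen after their values were seen. Some genes are counted but not reported by name here. Alternatives were quantile normalization, median centring, normexp (offset 50), that deposited table, other filters on dim probes, array weights, a robust trended variance, a replicate block, each array left out and the mean of a gene's probes. Centring on 278 spike-in spots and the slide row as a block were added after seeing the data. Gene names and promoters are from RefSeq (GRCr8), probe positions from the files (rn4). Python 3.11.15, pandas 2.3.3, numpy 2.4.6, data.table (1.17.8) and matplotlib 3.10.9 were used.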

Additional observations from a re-analysis of the deposited data

Results flagged for a closer look

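The 4 control arrays of each of the 27 named genes were checked for a value far from the other 3. In this check 2 genes were marked. Chance marks about 1 of 20 groups taken at random. Many of these genes were named for their fold change or p, so that rate need not hold here. In Usp5 control replicate 4, at -1.05, lay apart from the other controls, which were between -1.497 and -1.461. The gap took 0.919 of the group's range, above the 95% critical value of Dixon's test. In Usp31 control replicate 3, at -5.59, lay apart from controls between -4.22 and -4.03, with a ratio of 0.882. Groups of 3 arrays were not checked.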

How the results depend on the processing

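No member probe reached an adjusted p under 0.05 in limma under any of the 19 alternatives, where the whole array had between 1 and 15 such probes against 10. The lowest adjusted p of a member gene was 0.57 in the reported setting and between 0.17 (array weights) and 1 in the others that give one. The number of member probes at an unadjusted p under 0.05 was 6 as reported, against 1187 of all 20050 tested probes. It was 2 with normexp correction (619 of all), 3 with the deposited table (711) and 3 without a filter on dim probes (1418 of 45598). With array weights it was 13 (2659 of all), with the slide row as a block 2 (751) and with spike-in centring 0 (39). When each array was left out it lay between 3 and 8 (between 886 and 1829 of all). It was 3 without control replicate 3 (1110) and without ZnO replicate 3 (1033). The number of member probes whose groups did not overlap was 11 as reported and 0 with spike-in centring. It lay between 11 and 28 when each array was left out, reaching 28 without ZnO replicate 1 and 21 without ZnO replicate 2. There only 2 ZnO arrays have to lie on 1 side. Non-overlap over all tested probes was not counted in these settings, so the changes are not a result about the members. The offset between the spike-in scale and the 75th percentile scale ranged over 1.53 (log2) among the arrays. The median of the member genes, 0.0035, was -0.034 with median centring and 0.10 with spike-in centring. With spike-in centring the medians of the E1 and E2 genes, the deubiquitinases and the ZnF-UBP genes were 0.12, 0.076 and 0.055, and with array weights that of the ZnF-UBP genes was 0.017. Median and spike-in centring shift every probe's fold change by the same amount, so those shifts are not particular to the members. The median of all tested probes, -0.0064 as reported, was -0.0439 with median centring and 0.0911 with spike-in centring. The cause of the change with array weights was not tested.

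The deviations of same-numbered arrays from their group means correlated at -0.09, 0.21 and -0.23, and those of differently numbered arrays at -0.399 to 0.322. Deviations within groups of 4 and 3 arrays depend on each other. These correlations therefore cannot decide whether the replicate number paired the cultures. With the replicate number as a block, 3 member probes were at an unadjusted p under 0.05, of 957 such probes on the whole array. None of the members was at an adjusted one. Control replicate 4 is alone in its block and adds nothing to that fit.

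Of the 27 named genes 16 kept their sign in all settings and 11 did not. Signs turned with quantile normalization in Ube2m (-0.0083) and Ube2n (-0.022), with median centring in Otud3 (-0.015), Ube2m (-0.018) and Ube2n (-0.034), with normexp correction in Otud3 (-0.0048) and Ube2a (0.014), with the deposited table in Ube2a (0.0015), with array weights in Ube2m (-0.018), with the slide row as a block in Otud3 (-0.063) and with the mean of a gene's probes in Usp14 (0.0040) and Ube2v1 (-0.052). With spike-in centring they turned in Ube2k (0.00069), Usp14 (0.035), Ube2d3 (0.083), Ube2a (0.072), Uchl3 (0.076) and Uba1 (0.013). With each array left out the ranges that crossed 0 were -0.083 to 0.088 for Otud3, -0.10 to 0.42 for Usp31, -0.13 to 0.028 for Usp14, -0.062 to 0.033 for Ube2d3, -0.082 to 0.037 for Ube2a, -0.059 to 0.025 for Uchl3, -0.019 to 0.060 for Ube2m and -0.11 to 0.15 for Ube2n. A block by slide or scan was not run, because all arrays shared both.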

Other observations

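The files place 8 of the 150 member probes on another chromosome than the current annotation places the gene, on an unplaced stretch or on none, and 5 of these were tested. All 3 probes of Ube2n have rn4 positions on chromosome 1, while the annotation places the gene on chromosome 7. The tested probes of Usp4 and Usp19 are placed on an unassembled part of chromosome 16.

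The pooled SD within groups had a median of 0.10 over the 80 member genes and of 0.13 over all named genes tested, on the log2 scale, a description with no test. It ran from 0.03 in Usp7 to 0.58 in Usp31, and after Usp31 it was highest in Usp2 (0.46), Uba6 (0.32) and Ube2w (0.29).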
